A study of Homo sapiens with 5 samples.

Results

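KLK2, KLK3 and KLK4 are the kallikrein genes that the prostate is known for, and their mRNAs were followed through all 5 libraries of an RNA immunoprecipitation sequencing (RIP-seq) experiment on PSF. The members were chosen by symbol: the deposited table has 25702 genes, and KLK2, KLK3 and KLK4 each matched 1 row, which gives 3 genes. The cells were LTAD, labelled as a prostate cancer line, in phenol-red free medium with charcoal/dextran-treated serum, which is low in androgen, and this medium was common to all groups. There were 2 PSF-RIP libraries of cells given the small molecule No.10-3 at 5 µM (replicates 1 and 2), 1 PSF-RIP library of cells given the DMSO vehicle, and 2 input libraries. By the labels 1 input came from No.10-3 cells and 1 from vehicle cells, but the columns do not tell which is which, so both form 1 group, input, and are called here by their depth, the deeper and the shallower input. PSF, the product of SFPQ, is a nuclear RNA-binding protein, and the question set by the title is how a small molecule affects its binding to RNA. The 5 samples hold no control immunoprecipitation, so recovery that does not depend on PSF could not be measured. Nothing in the labels says that the treated PSF-RIP pair is from different cultures, and p-values then measure the spread between these libraries, which may be technical.

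Kallikrein-related peptidases are secreted serine proteases encoded by a cluster of genes on chromosome 19. KLK3 is prostate-specific antigen, which cleaves the semenogelins and liquefies semen. KLK2 can activate the KLK3 zymogen in vitro, and KLK4 was first described as a prostate protease and is also needed for the maturation of tooth enamel. In prostate luminal cells all of these genes are transcribed in response to androgen, which acts through response elements built of paired hexamers, and KLK3 is the usual reporter of that response. PSF is known for roles in splicing and in nuclear retention of RNA.

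The genes lie close together on chromosome 19 in RefSeq's GRCh38.p14 annotation, in the order KLK3, KLK2, KLK4. All are protein-coding, and no other gene of that annotation overlaps any of them. The coordinates below are those of that build, while the submitters' processing notes name hg19. The 250 bases before each gene's start are shown because they hold a well known androgen response element of KLK3 and show how close KLK2 and KLK3 are as paralogs. They are the RefSeq sequences of chr19:50873189-50873438 (plus strand) for KLK2, chr19:50854665-50854914 (plus strand) for KLK3 and chr19:50911396-50911645 (minus strand) for KLK4, written 5′ to 3′ on the gene's strand. For KLK4 the table holds 2 starts, and the one at the end of the annotated gene was taken. Capitals mark 2 motifs: a loose form of the androgen response element, spelled GAACA, any 4 bases, then GTNCT, and the TATA-like TTTATA.
KLK2: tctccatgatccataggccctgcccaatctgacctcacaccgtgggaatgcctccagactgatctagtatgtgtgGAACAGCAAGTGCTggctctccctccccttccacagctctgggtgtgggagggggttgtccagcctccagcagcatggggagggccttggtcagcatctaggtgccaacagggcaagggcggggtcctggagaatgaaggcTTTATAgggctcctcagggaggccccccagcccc
KLK3: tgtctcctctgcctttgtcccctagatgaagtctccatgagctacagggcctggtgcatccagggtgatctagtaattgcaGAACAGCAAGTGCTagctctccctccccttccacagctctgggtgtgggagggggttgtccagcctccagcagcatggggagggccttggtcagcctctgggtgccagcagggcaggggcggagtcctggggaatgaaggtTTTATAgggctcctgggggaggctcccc
KLK4: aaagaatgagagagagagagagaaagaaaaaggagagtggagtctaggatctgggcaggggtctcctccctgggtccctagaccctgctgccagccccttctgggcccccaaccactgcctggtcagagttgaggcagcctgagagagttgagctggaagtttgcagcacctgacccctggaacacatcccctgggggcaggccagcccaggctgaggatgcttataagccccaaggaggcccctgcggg

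KLK2 and KLK3 held the same match to the loose element, GAACAGCAAGTGCT, starting at position -175 of KLK2 and -169 of KLK3, counted from the gene's start. They also shared TTTATA, at -34 in KLK2 and -28 in KLK3. KLK4 held neither motif in this window. Both strands were searched, and matches to the motifs did not overlap. The loose element was found in 0.216% and TTTATA in 10.7% of 35116 RefSeq promoter windows of the same length. The full palindrome (AGAACA, any 3 bases, then TGTTCT) was in none of these 3 windows. The letters of the loose element were chosen after several forms had been tried on these sequences. Aligned end to end, KLK2 and KLK3 were identical at 205 of 238 aligned bases (86.1%), with a longest shared run of 80 bases, against 56.5% for KLK2 and KLK4 and 59.1% for KLK3 and KLK4. A match is a description of the sequence only. The sources used here do not say how reads that map to several places were counted, so counts of these close paralogs are uncertain where their transcripts are alike. The strand setting of the counting is not given either.

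The makeup of PSF-RIP and input libraries was far apart, which sets the scale of every comparison with input. The No.10-3 PSF-RIP libraries held 1519362 and 3368252 counts, the vehicle PSF-RIP library 2181770, and the inputs 4010376 and 3083063. Nuclear protein-coding genes took 73.6% to 82.1% of counts in PSF-RIP and 15.9% to 16.4% in input. In input 5 small RNAs (7SK, both 7SL genes, RPPH1 and RMRP) alone took 51.7% to 55.0%. In PSF-RIP these RNAs took 6.70% and 2.63% in No.10-3 replicates 1 and 2, and 7.81% with vehicle. Levels are therefore given as mRNA CPM, counts scaled to a total of 1000000 over nuclear protein-coding genes alone, with exact 95% binomial intervals that cover counting error only, since the labels name no molecular identifiers. All 10 luminal prostate markers had counts, summing to 1849 to 2442 CPM, scaled to all gene counts, in PSF-RIP and 395 to 508 CPM in input. Marker sums on that scale reflect the makeup just described, so here and below they do not compare PSF-RIP with input. The basal markers KRT5 and TP63, the pan-leukocyte marker PTPRC and the neuroendocrine markers CHGA, CHGB and INSM1 were at 0 in all 5 libraries. The other 3 of 5 basal markers summed to 3.56 to 5.27 CPM in PSF-RIP and 0 to 0.324 CPM in input, and the other 2 of 5 neuroendocrine markers to 6.42 to 7.90 CPM in PSF-RIP and 0.997 to 2.92 CPM in input, with SYP at 8.31 to 10.7 mRNA CPM in PSF-RIP and 6.07 to 18.3 mRNA CPM in input. The list of stromal, endothelial and immune markers, of which 4 of 6 had counts, summed to 52.0 to 76.1 CPM in PSF-RIP and 1.95 to 3.99 CPM in input. Most of that sum was COL1A1, at 61.1 to 98.8 mRNA CPM in PSF-RIP and 12.2 to 22.8 mRNA CPM in input. The part of these markers in the values below was not tested.

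KLK2 had the most counts of the 3 members in every library but the shallower input, and its level was highest in the vehicle PSF-RIP library. It had 511 counts in No.10-3 replicate 1 and 1715 in replicate 2, against 1949 with vehicle, and 380 and 139 in the deeper and the shallower input. In mRNA CPM this was 457 (interval 418 to 498) and 620 (591 to 650) with No.10-3, 1174 (1122 to 1227) with vehicle, and 576 (520 to 637) and 283 (238 to 334) in the inputs. The vehicle library thus stood above the other 4, a place it also took for 24.8% of all tested genes, and the No.10-3 libraries lay on either side of the deeper input. Among 18920 nuclear protein-coding genes ranked by count per length, KLK2 was 389th and 164th with No.10-3, 70th with vehicle, and 249th and 762nd in the inputs.

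KLK4 varied less. It had 309 and 817 counts with No.10-3, 646 with vehicle, and 250 and 150 in the inputs. In mRNA CPM these were 276 (246 to 309) and 295 (275 to 316) with No.10-3, 389 (360 to 420) with vehicle, and 379 (334 to 429) and 305 (258 to 358) in the inputs. The No.10-3 libraries were the lowest of the 5, though both intervals overlapped that of the shallower input. The share of all tested genes with the No.10-3 libraries lowest was not counted. By count per length KLK4 ranked 264th and 160th with No.10-3, 124th with vehicle, and 164th and 298th in the inputs.

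KLK3, the gene of prostate-specific antigen, was low in every library. It had 33 and 92 counts with No.10-3, 37 with vehicle, and 12 and 6 in the inputs. In mRNA CPM these were 29.5 (20.3 to 41.4) and 33.3 (26.8 to 40.8) with No.10-3, 22.3 (15.7 to 30.7) with vehicle, and 18.2 (9.41 to 31.8) and 12.2 (4.48 to 26.6) in the inputs. Neighbouring levels did not differ beyond counting error, and the intervals of No.10-3 replicate 2 and the shallower input were the only pair that did not overlap. By count per length KLK3 ranked between 5682nd and 8224th.

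Set against each other per length, KLK3 was far below KLK2 and KLK4, whose order depended on the library. In mRNA CPM per kilobase of the deposited gene length, KLK2 had 159 and 216 with No.10-3, 409 with vehicle, and 201 and 98.5 in the inputs. KLK4 had 205 and 219 with No.10-3, 289 with vehicle, and 282 and 227 in the inputs. KLK3 had 13.3 and 15.0 with No.10-3, 10.1 with vehicle, and 8.22 and 5.52 in the inputs. KLK4 was thus above KLK2 per length in every library but the vehicle PSF-RIP one, though by less than counting error in No.10-3 replicate 2, where the ratio of KLK2 to KLK4 per length was 0.985. That ratio was lowest in the shallower input, at 0.435 (0.343 to 0.551), and highest with vehicle, at 1.42 (1.29 to 1.55).

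**Figure D1:**
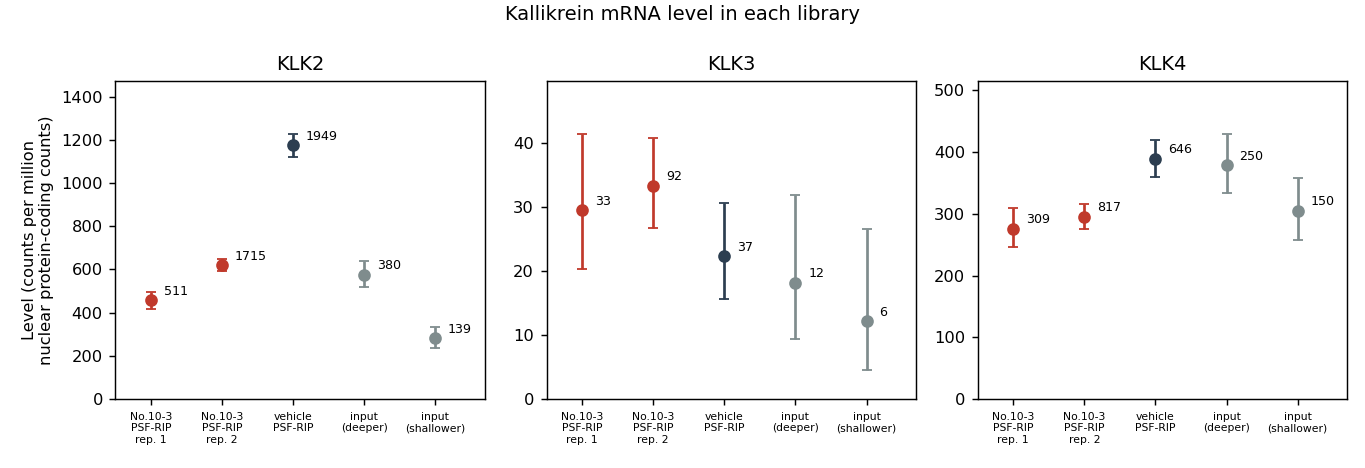
Level of KLK2, KLK3 and KLK4 in each of the 5 libraries, on a linear axis from 0, in mRNA CPM (scaled to nuclear protein-coding counts). Points are single libraries, bars are exact 95% binomial intervals and the figure beside a point is its count; KLK2 stands at 1174 in the vehicle PSF-RIP library and at 457 and 620 in the No.10-3 PSF-RIP libraries.

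No.10-3 was compared with vehicle within PSF-RIP. KLK2 averaged 538 ± 115 mRNA CPM with No.10-3 (SD, n = 2) and stood at 1174 with vehicle, so the treated libraries held 0.389 and 0.528 of the vehicle level. KLK4 averaged 286 ± 13.5 with No.10-3 (SD, n = 2) and stood at 389 with vehicle, 0.710 and 0.759 of it. KLK3 averaged 31.4 ± 2.66 with No.10-3 (SD, n = 2) and stood at 22.3 with vehicle, 1.32 and 1.49 times it. The levels of KLK2 and KLK4 thus lay below vehicle, and those of KLK3 above it, in each of the treated libraries. Each gap to the vehicle library was larger than the gap between the treated pair, but both treated intervals of KLK3 overlapped that of vehicle. How many of all tested genes show the same order of libraries was not counted, so it is not a trait particular to these members. Both treated libraries are set against the same single vehicle library.

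None of these differences passed the test across all genes. In edgeR's quasi-likelihood test the log2 change was -1.09 (SE 0.65, adjusted p = 0.998, unadjusted p = 0.0920) for KLK2, -0.41 (SE 0.59, adjusted p = 0.998) for KLK4 and 0.53 (SE 0.66, adjusted p = 0.998) for KLK3, beside a median of 0.04 over all tested genes. The test called 0 of 13766 genes (0%), 563 (4.09%) had an unadjusted p under 0.05, and DESeq2 called 0 (0%), with 123 (0.894%) at an unadjusted p under 0.05. In 4.47% of tested genes the log2 change was at or below that of KLK2, and in 23.9% at or below that of KLK4. In 23.0% it was at or above that of KLK3. Spread in this test comes from the treated pair alone, with the vehicle library taken to vary as that pair does. Leaving out 1 treated library leaves only the gap between the inputs as spread. In that fit 866 genes were called without replicate 1 and 26 without replicate 2, and KLK2 was not among them, with log2 changes of -0.92 (edgeR adjusted p = 0.0753) and -1.30 (edgeR adjusted p = 0.0973). A difference in PSF binding and a difference in the RNA's level in the cells cannot be told apart here, since the input columns are not tied to the treatments, and neither can fewer cells with the RNA and less of it per cell.

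Ratios between the members within a library do not depend on how libraries are scaled. For KLK2 over KLK4 the ratio of counts was 1.65 (1.43 to 1.91) and 2.1 (1.93 to 2.28) with No.10-3, 3.02 (2.76 to 3.30) with vehicle, and 1.52 (1.29 to 1.79) and 0.927 (0.730 to 1.18) in the deeper and the shallower input. The vehicle PSF-RIP library again stood above the other 4 beyond counting error. The treated pair differed between themselves beyond counting error too, and so did the inputs. For KLK2 over KLK3 the ratio was 15.5 (10.9 to 22.7) and 18.6 (15.1 to 23.2) with No.10-3, 52.7 (38.1 to 75.0) with vehicle, and 31.7 (17.9 to 61.8) and 23.2 (10.4 to 64.2) in the inputs. The treated intervals overlapped each other and not that of vehicle, while both input intervals were wide enough to overlap every PSF-RIP library. For KLK4 over KLK3 it was 9.36 (6.53 to 13.8) and 8.88 (7.15 to 11.1) with No.10-3, 17.5 (12.5 to 25.0) with vehicle, and 20.8 (11.7 to 40.9) and 25.0 (11.2 to 69.2) in the inputs. Both treated libraries had the lowest values, and only replicate 2 had an interval clear of vehicle.

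Compared over libraries, the log2 ratio of PSF-RIP minus input was 0.88 for KLK2 over KLK4 (exact permutation test over 5 libraries, two-sided p = 0.2), -0.13 for KLK2 over KLK3 (exact p = 1) and -1.01 for KLK4 over KLK3 (exact p = 0.2). With 3 libraries against 2 this test cannot go below 0.1. Between No.10-3 and vehicle no such test was made, since 2 libraries against 1 cannot reach the threshold. The mean log2 ratio of the treated pair minus vehicle was -0.70 for KLK2 over KLK4, -1.63 for KLK2 over KLK3 and -0.94 for KLK4 over KLK3.

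**Figure D2:**
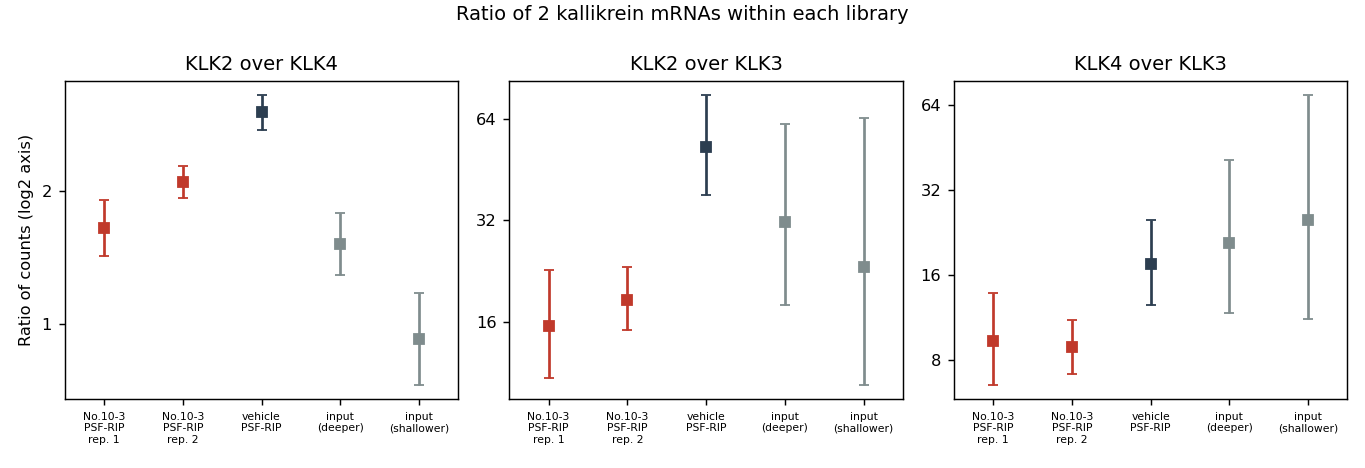
Ratio of the counts of 2 kallikrein mRNAs within each of the 5 libraries, on a log2 axis. Squares are single libraries and bars exact 95% binomial intervals; in the panel of KLK2 over KLK4 the vehicle PSF-RIP library stands at 3.02, above both No.10-3 libraries at 1.65 and 2.1 and both inputs at 1.52 and 0.927.

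PSF-RIP was then compared with the 2 inputs as 1 group. KLK2 had a log2 difference of 1.33 in the vehicle PSF-RIP library over input (SE 0.50, edgeR adjusted p = 0.0512) and of 0.24 in No.10-3 PSF-RIP over input (SE 0.42, edgeR adjusted p = 0.741), which turned to -0.16 without the shallower input. For the mean of both PSF-RIP groups over input it was 0.79 (SE 0.40, edgeR adjusted p = 0.143). KLK2 with vehicle thus lay just outside the threshold, and inside it when genes were not filtered (log2 1.38, edgeR adjusted p = 0.0386) or when libraries were scaled to nuclear protein-coding counts (log2 1.45, edgeR adjusted p = 0.0401, a setting chosen after seeing the data). It stood at 0.93 (edgeR adjusted p = 0.506) without the shallower input and at 1.91 (edgeR adjusted p = 0.113) without the deeper one. For the mean of both PSF-RIP groups, KLK2 passed the threshold without No.10-3 replicate 1 (log2 0.87, edgeR adjusted p = 0.00219) and without replicate 2 (log2 0.67, edgeR adjusted p = 0.0226), where spread again comes from the inputs alone. It stood at 0.23 (edgeR adjusted p = 0.747) without the vehicle library, 1.37 (edgeR adjusted p = 0.2) without the deeper input and 0.38 (edgeR adjusted p = 0.775) without the shallower input.

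KLK3 had a log2 difference of 0.94 in No.10-3 PSF-RIP over input (SE 0.53, edgeR adjusted p = 0.234) and 0.41 in vehicle PSF-RIP over input (SE 0.63, edgeR adjusted p = 0.678). The value with vehicle was 0.72 without the deeper input and 0.19 without the shallower one. All 3 of its PSF-RIP libraries lay above both inputs, as they did for 30.1% of tested genes. KLK4 had -0.34 in No.10-3 PSF-RIP (SE 0.39, edgeR adjusted p = 0.595) and 0.06 in vehicle PSF-RIP (SE 0.48, edgeR adjusted p = 0.938), and for the mean of both groups it was -0.14 (edgeR adjusted p = 0.812) and KLK3 was 0.67 (edgeR adjusted p = 0.340). The sign of KLK4 turned to 0.01 for the mean of both groups without the deeper input and to -0.06 for vehicle without the shallower one. So 0 of the 3 members were called in any comparison with input. Over all 13321 genes tested, edgeR called 12.0% higher and 13.6% lower in the mean of both PSF-RIP groups (25.6% in all), 4.98% and 6.50% in No.10-3 PSF-RIP (11.5% in all), and 10.0% and 10.4% in vehicle PSF-RIP (20.5% in all). Those counts moved with single libraries: the 3413 genes called for the mean of both groups became 1405 without the vehicle library, 1168 without the deeper input, 616 without the shallower input and 5566 without No.10-3 replicate 2. The 1529 genes called for No.10-3 PSF-RIP became 400 without the deeper input, 234 without the shallower input and 4073 without No.10-3 replicate 2, and the 2728 called for vehicle PSF-RIP became 914 without the deeper and 332 without the shallower input.

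The scale decides how these differences read. With libraries scaled to their total gene count alone, the median tested gene was 2.38 log2 units higher in PSF-RIP than in input, and edgeR called 11223 genes higher and 54 lower, against 1596 higher and 1817 lower with TMM scaling. On that scale KLK2 was 3.13, KLK3 3.01 and KLK4 2.21 log2 units higher in PSF-RIP (edgeR adjusted p = 1.58e-06, 3.25e-05 and 1.28e-05). Relative to the median gene this again left KLK2 and KLK3 above and KLK4 below.

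**Figure D3:**
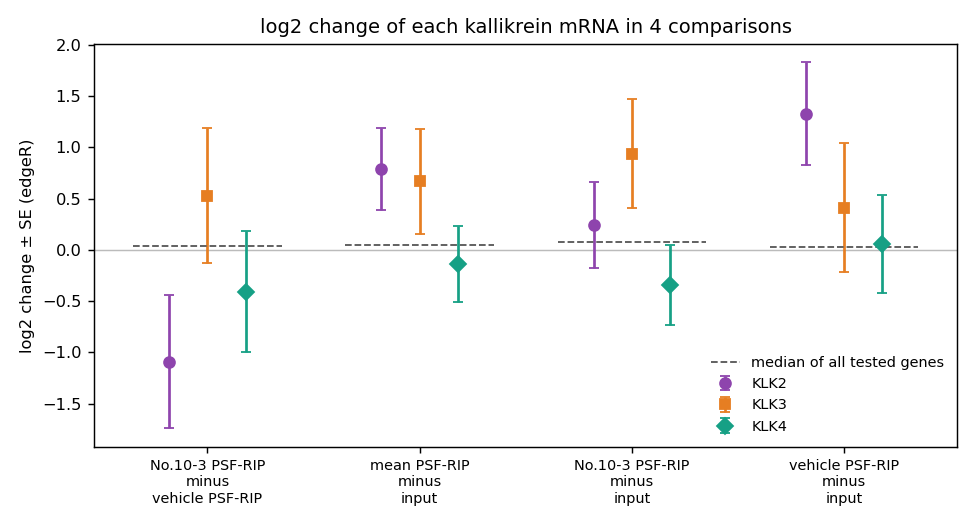
Log2 change of KLK2 (circles), KLK3 (squares) and KLK4 (diamonds) from edgeR in 4 comparisons, with bars of 1 SE and a dashed line at the median of all tested genes. KLK2 stands at -1.09 for No.10-3 against vehicle PSF-RIP and at 1.33 for vehicle PSF-RIP against input, and no point passed the adjusted threshold.

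Of the 3 members, KLK2 differed most between the inputs. In mRNA CPM the deeper input held 2.04 times as much KLK2 as the shallower one, 1.49 times as much KLK3 and 1.24 times as much KLK4. With TMM scaling, 16.7% of the 13321 tested genes had a gap between the inputs at least as large as that of KLK2, 42.4% one as large as that of KLK3 and 65.5% one as large as that of KLK4. Among the 1020 genes with at least 100 counts in both inputs 26 (2.55%) had a gap as large as that of KLK2, KLK2 included. There is 1 library of each treatment and the columns do not name it, so the direction by treatment is not known and the gap has no replicate check. The spread of KLK2 in input (430 ± 208 mRNA CPM, SD, n = 2) therefore cannot be told apart from a difference between the treatments.

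Most other kallikreins had few or no counts, and KLK15 was near the low level of KLK3. Of 13 other kallikrein genes, the 12 others of the peptidase family and the pseudogene KLKP1, only KLK15 and KLKP1 passed the filter of 1 CPM on average. KLK15, a neighbour of KLK3, had 20 and 39 counts with No.10-3, 27 with vehicle, and 9 and 1 in the inputs. Per kilobase and scaled to all gene counts, KLK15 had 10.1 and 8.85 CPM with No.10-3, 9.45 with vehicle, and 1.71 and 0.248 in the inputs. On the same scale KLK3 had 9.81 and 12.3 CPM with No.10-3, 7.66 with vehicle, and 1.35 and 0.879 in the inputs. KLK15 was thus nominally the higher in 3 of 5 libraries, a comparison of few counts within each library, made without intervals. KLKP1, which lies between KLK2 and KLK4, had 2 and 9 counts with No.10-3, 3 with vehicle, and 1 in each input. KLK1, KLK8, KLK13 and KLK14 had at most 3 counts in a library, and KLK5, KLK6, KLK7, KLK9, KLK10, KLK11 and KLK12 had 0 in all 5, which allows up to 3 counts in each as a one-sided limit. For No.10-3 against vehicle PSF-RIP the log2 change was -0.01 for KLK15 (edgeR adjusted p = 0.999) and 0.60 for KLKP1 (edgeR adjusted p = 0.998). Reads of KLK15 are uncertain, since another gene, LOC105372441, overlaps it in the RefSeq annotation.

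Other genes that respond to androgen were compared between No.10-3 and vehicle PSF-RIP in the same fit. Of 24 other androgen-activated genes tested, 0 were called, 17 had a positive and 7 a negative log2 change, and the median was 0.25 beside 0.04 over all tested genes. Among these 24 genes only ADAM7 had a log2 change as low as that of KLK2, at -3.20 (SE 1.04, edgeR adjusted p = 0.918). ADAM7 had 0.894 and 0.723 mRNA CPM with No.10-3, 7.83 with vehicle, and 4.55 and 2.04 in the inputs. These levels rest on few counts and lie far below those of KLK2 in every library. Of 17 mRNAs of transcription factors and cofactors of the androgen response, 0 were called, 12 were positive and 5 negative, and the median was 0.20. GATA2, a transcription factor active in prostate luminal cells, stood at 387 and 331 mRNA CPM with No.10-3, 702 with vehicle, and 278 and 175 in the inputs, a log2 change of -0.93 (edgeR adjusted p = 0.998). Among 5 tested inhibitors, substrates and partners of the kallikreins 0 were called.

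Against input, with TMM scaling, 3 of the 17 factor and cofactor mRNAs were called higher in the mean of both PSF-RIP groups and 0 lower, with a median log2 difference of 0.39 beside 0.05 over all genes. They were SMARCA4, the ATPase of a chromatin remodeller, at 1.83 (edgeR adjusted p = 8.92e-04), CREBBP, a histone acetyltransferase, at 1.11 (edgeR adjusted p = 0.0298), and GATA2 at 1.05 (edgeR adjusted p = 0.0411). Of the 24 other androgen-activated genes 1 was called higher and 2 lower, with a median of -0.37. The higher one was TMEM79, at 1.26 (edgeR adjusted p = 0.0162), and the lower ones were EAF2, at -1.85 (edgeR adjusted p = 0.00235), and MED28, a Mediator subunit, at -1.68 (edgeR adjusted p = 0.00450). HPN, the membrane protease hepsin, was called higher at 1.33 (edgeR adjusted p = 0.0112), the only call among 4 tested inhibitors, substrates and partners. Of the 8 luminal markers tested, KRT18, a keratin, was called higher at 1.15 (edgeR adjusted p = 0.0238) and STEAP2, a metalloreductase, lower at -1.53 (edgeR adjusted p = 0.00668). COL1A1, a fibroblast collagen, was called higher at 2.06 (edgeR adjusted p = 0.00162), the only call among 2 tested stromal, endothelial and immune markers. These shares stand beside 12.0% called higher and 13.6% lower over all genes. Taken group by group against input, SMARCA4, EAF2 and COL1A1 were called in No.10-3 and in vehicle PSF-RIP alike. CREBBP, TMEM79 and KRT18 were called with No.10-3 only, and GATA2, MED28, HPN and STEAP2 with vehicle only. All of these genes kept their direction in each group.

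Likeness of profile over the 5 libraries was measured as the root mean square difference in log2 CPM, each gene centred on its own mean, among genes that averaged 10 CPM or more after TMM scaling. KLK3 averaged 9.47 CPM, so it was set against these genes but was not itself ranked for KLK2 or KLK4. The genes nearest to KLK2 were CYP4F11 at 0.04, CSAD at 0.09 and, at 0.11, a row that the table lists by number only. CYP4F11, a cytochrome P450 gene, had 31 and 96 counts with No.10-3, 118 with vehicle, and 23 and 8 in the inputs. For KLK4 they were LRIG2 at 0.06, UTP4 at 0.07 and DNAJC16 at 0.07. For KLK3 they were PGK1, a glycolytic enzyme, at 0.07, KLF15 at 0.08 and TSPAN9 at 0.08. The members were not near each other: KLK4 was 2006th among 8393 genes in likeness to KLK2, at 0.56, and KLK2 was 4568th among 8394 in likeness to KLK3, at 0.61. With 5 libraries and low counts such likeness is a description only.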

How the data were processed

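RNA from PSF-RIP and input of LTAD cells was sequenced in 5 libraries. The authors deposited 1 table with a whole-number count per Entrez gene and library and a gene length, and the counts were taken as raw. Per the submitters' processing notes, the build was hg19 and the tools were Bowtie, Bowtie2 2.2.6 and TopHat2 2.1.0. No source used here gives the counting tool, its strand setting or the annotation. Left unused were the 5 deposited FPKM columns. The columns named for the compound were assigned to PSF-RIP by elimination, since both input samples have columns named input.

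Genes averaging 1 CPM or more in the libraries of a fit were tested with edgeR 4.0.16 (R 4.3.3), using TMM factors, glmQLFit and glmQLFTest, with Benjamini-Hochberg adjustment over all tested genes and a threshold of 0.05. The 3 PSF-RIP libraries were fitted alone for No.10-3 against vehicle. All 5 were fitted in 3 groups for comparisons with input. The SE is the log2 change divided by the square root of F. Alternatives were other scalings, filters, DESeq2 1.42.0, other groupings and leaving out libraries. Counts of the treated pair and of the inputs differed beyond sampling noise (chi-square over its degrees of freedom, 26.7 and 6.79). Genes were matched on Entrez ID to RefSeq for biotypes (23696 matched), and 1962 genes without a symbol, with 0.110% to 0.504% of counts, were kept.

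The members and lists were chosen with earlier results of these data known. Named beside the members were the other kallikreins that passed the filter, the 3 genes nearest in profile to each, and called genes of the lists. GATA2 for No.10-3 against vehicle, ADAM7 and the unfiltered kallikreins were named after their values were seen. Some list members are not reported here and were left out of the lists' counts.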

Additional observations from a re-analysis of the deposited data

How the results depend on the processing

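No paired analysis was possible because the vehicle PSF-RIP group has 1 library and the input columns, 1 of which has a 2 in its name, are not tied to a sample or treatment. Of 141 recomputed member values, 125 kept their direction and side of the threshold. KLK3 in No.10-3 PSF-RIP against input had no adjusted p in DESeq2 and was counted as not called. For No.10-3 against vehicle PSF-RIP all 33 were kept, with log2 changes of -1.30 to -0.92 for KLK2, 0.47 to 0.57 for KLK3 and -0.45 to -0.40 for KLK4. With total gene counts alone, the members' log2 differences from input were, for KLK2, KLK3 and KLK4, 3.13, 3.01 and 2.21 in the mean of both PSF-RIP groups, 2.60, 3.28 and 2.01 in No.10-3 PSF-RIP and 3.67, 2.74 and 2.42 in vehicle PSF-RIP, all called, and edgeR called 11277, 11586 and 9775 genes in place of 3413, 1529 and 2728, with 99.5% of them higher in each in place of 46.8%, 43.4% and 49.0%. DESeq2 called 2252, 883 and 1664. For KLK2 in vehicle PSF-RIP the difference passed with no filter (1.38) and with nuclear protein-coding totals (1.45, chosen after seeing the data). Leaving out 1 library gave 26 to 866 genes for No.10-3 against vehicle, and against input 616 to 5566 for the mean of both groups, 234 to 4073 for No.10-3 and 332 to 914 for vehicle. The same gave, for the mean of both groups, 0.23 to 1.37 for KLK2, 0.46 to 0.99 for KLK3 and -0.35 to 0.01 for KLK4; for No.10-3 -0.16 to 0.82 for KLK2, 0.73 to 1.26 for KLK3 and -0.47 to -0.20 for KLK4; and for vehicle 0.93 to 1.91 for KLK2, 0.19 to 0.72 for KLK3 and -0.06 to 0.21 for KLK4. Fits without 1 No.10-3 library rest on the input pair for spread, and fits without 1 input on the treated pair. The lone library was assumed to vary like the others. Beyond that construction, the cause was not tested. Depth limits KLK3 most, with 6 to 12 counts in the inputs.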
